A study of Drosophila melanogaster with 21 samples.

Results

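The yolk protein genes Yp1, Yp2 and Yp3 of Drosophila melanogaster were followed in heads of single female flies. They were taken by name as 3 of the 17559 genes for which a level was deposited, and all 3 passed the filter on low values. Yolk proteins are the major proteins that a developing egg stores as food for the embryo. They are made in females by the fat body, the insect counterpart of liver and adipose tissue, and by the follicle cells of the ovary, and those from the fat body travel through the hemolymph to the oocyte. A layer of fat body lies inside the head capsule, so a whole head contains fat body cells beside the brain and the eyes. In this tissue the female form of the sex determination factor Doublesex turns the genes on, and juvenile hormone, ecdysone and feeding are known to set their level.

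The study asked which transcripts change in the head after flies learn to link an odor with sugar, a task that only works in hungry animals. The paper also sequenced heads after courtship training and from another experiment with the odor task, which are not used here. The part used here comprised 21 heads, each from a separate female fly and each a library of its own, in 4 groups. The first group (naive, 5 heads) came from untrained fed flies and the second (starved_naive, 5 heads) from food-deprived flies that were not trained. The other groups came from food-deprived flies that were trained with odor and sucrose and collected 1 hour (starved_trained_1hr, 6 heads) or 4 hours (starved_trained_4hr, 5 heads) after training. They are called fed, starved, 1-hour and 4-hour heads here. For the trained flies, food-deprived describes the time before training. All flies of these 4 groups were female, and their strain, age and mating status are not given in the sources used here. Every trained fly had also been deprived of food and then met sucrose, and no fed fly was trained, so training and feeding state cannot be told apart against fed heads.

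Levels are in RPKM, the reads of a gene per kilobase of its exons, scaled to a library size for each head. As recovered from the deposited values, this size was 0.817 to 1.143 times the reads on genes. The mean of this ratio was 0.92 in fed, 1.03 in starved, 1.02 in 1-hour and 1.07 in 4-hour heads. An equal share of reads thus gave a higher RPKM in fed heads on average. Between 35800209 and 67326242 reads fell on genes in each head, and the yolk protein genes were covered by 1334 reads at the least, for Yp2 in starved replicate 3, and 2206850 at the most, for Yp1 in fed replicate 2. Counting error was therefore small beside the differences between flies. Among the fed heads, replicate 2 stood apart, since 3.14% of the reads came from genes of small structural RNAs. It also had 54.2 RPKM of roX2, a non-coding RNA of male dosage compensation, which was at most 0.830 RPKM in every other head, while roX1, the other such RNA, was at 1.81 to 3.49 RPKM in all 21 heads. Among the starved heads, replicate 3 stood apart with low levels of fat body genes that are given below. Markers of the ovary, the other source of yolk proteins, were low in most heads: 17 of the 19 measured genes did not pass the filter. The summed level of all 19 was 9.97 to 18.4 RPKM in 19 heads, and grk, the gene of an oocyte signal, gave 7.57 to 13.6 RPKM of it over the 21 heads. The sum was 55.0 RPKM in 1-hour replicate 2 and 59.5 RPKM in 4-hour replicate 6, where Vm26Aa, an eggshell gene of follicle cells, was at 14.1 and 12.2 RPKM. Levels of the yolk protein genes were highest of their group in that 1-hour head and lowest of their group in that 4-hour head. The part of these ovary transcripts in the levels was not tested.

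All 3 genes lie on the X chromosome (coordinates of dm6, from the Ensembl annotation of BDGP6.54). Yp1 (FBgn0004045) spans 10053811 to 10055498 on the forward strand, with 1611 exonic bases in 2 exons. Yp2 (FBgn0005391) spans 10050951 to 10052636 on the reverse strand, with 1618 exonic bases in 2 exons. The pair is transcribed divergently from starts 1174 bp apart, and the DNA between them is known to hold control elements that Doublesex binds. Yp3 (FBgn0004047) lies 3704 kb away at 13759546 to 13761547 on the forward strand, with 1868 exonic bases in 3 exons. A gene annotated on the strand opposite to Yp1, asRNA:CR45601 (FBgn0267161, 10054235 to 10055109), overlaps its second exon. Its deposited level was 1.2 to 1.28 times that of Yp1 in every head, and since the libraries did not keep the strand, reads of the 2 genes cannot be told apart. Yp2 and Yp3 overlap no other annotated gene.

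**Figure D1:**
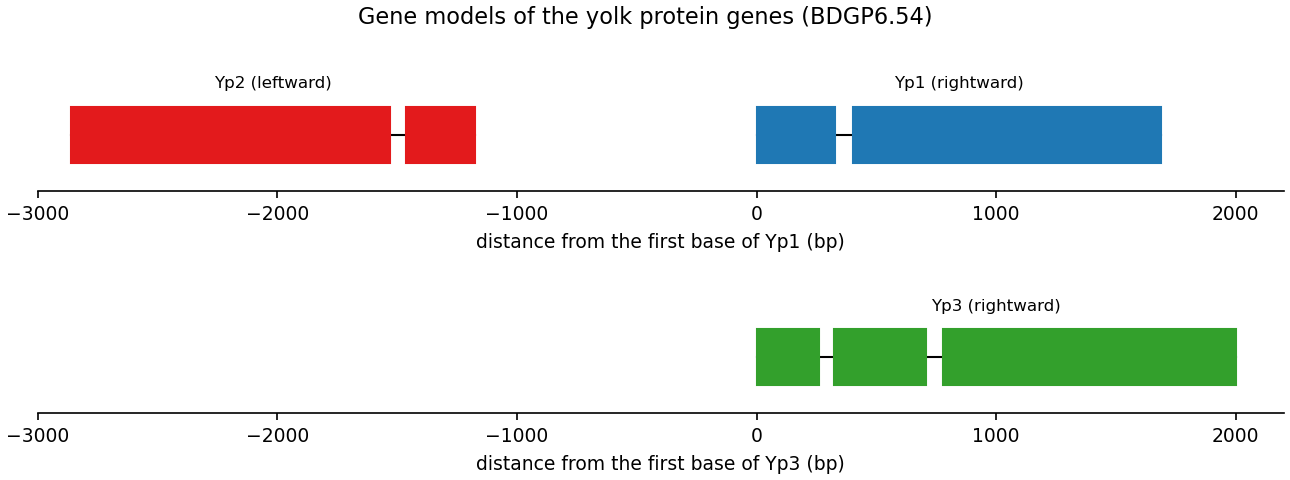
Exons (boxes) and introns (lines) of Yp2 and Yp1 above, by distance in bp from the first base of Yp1, and of Yp3 below, by distance from its own first base. Yp1 and Yp2 point away from each other with 1174 bp between their starts, and Yp3 has 3 exons where the others have 2.

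In fed heads the yolk protein genes were among the most abundant transcripts. Yp1 was at 14842, 25316, 26500, 15876 and 27571 RPKM in fed replicates 1, 2, 3, 5 and 6, and ranked 3rd to 5th of all genes in each. The genes above it include asRNA:CR45601, whose reads cannot be told from those of Yp1. Yp2 was at 8199, 11528, 13978, 6463 and 13534 RPKM in the same heads. Yp3 was at 8016, 17574, 14398, 6220 and 20320 RPKM. Replicates 1 and 5 were the lowest for all 3 genes, but the highest fed head exceeded the lowest by no more than 1.86 times for Yp1, 2.16 times for Yp2 and 3.27 times for Yp3. The summed reads of the 3 genes made up 4.84% to 9.15% of all gene reads in these heads.

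In starved heads the levels were lower and far more variable. Yp1 was at 4663, 4311, 41.6, 868 and 523 RPKM in starved replicates 1 to 5. The same heads held Yp2 at 1157, 1316, 19.2, 225 and 125 RPKM. Yp3 was at 1885, 5350, 44.8, 1171 and 1084 RPKM. The highest starved head had 112 times the Yp1 level of the lowest, and replicate 3 was the lowest for each gene, where Yp1 ranked 1443rd among all genes. No starved head reached the lowest fed head in any of the 3 genes.

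The trained heads lay in the same lower range. At 1 hour after training the lowest, median and highest heads had 212, 1226 and 11595 RPKM of Yp1. Yp2 was at 85.3, 348 and 4403 RPKM and Yp3 at 267, 926 and 4859 RPKM on the same measure. Replicate 2 was the highest and replicate 3 the lowest for all 3 genes, and no 1-hour head reached a fed head. At 4 hours Yp1 was at 2053, 4562, 1288, 5759 and 523 RPKM in replicates 1, 3, 4, 5 and 6. Yp2 was at 677, 1549, 665, 1835 and 264 RPKM. Yp3 was at 599, 954, 1159, 1018 and 396 RPKM, which was the narrowest range of any of the 3 genes in a food-deprived group, with 2.93 times between the lowest and the highest head. All 4-hour heads were below all fed heads in the 3 genes.

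**Figure D2:**
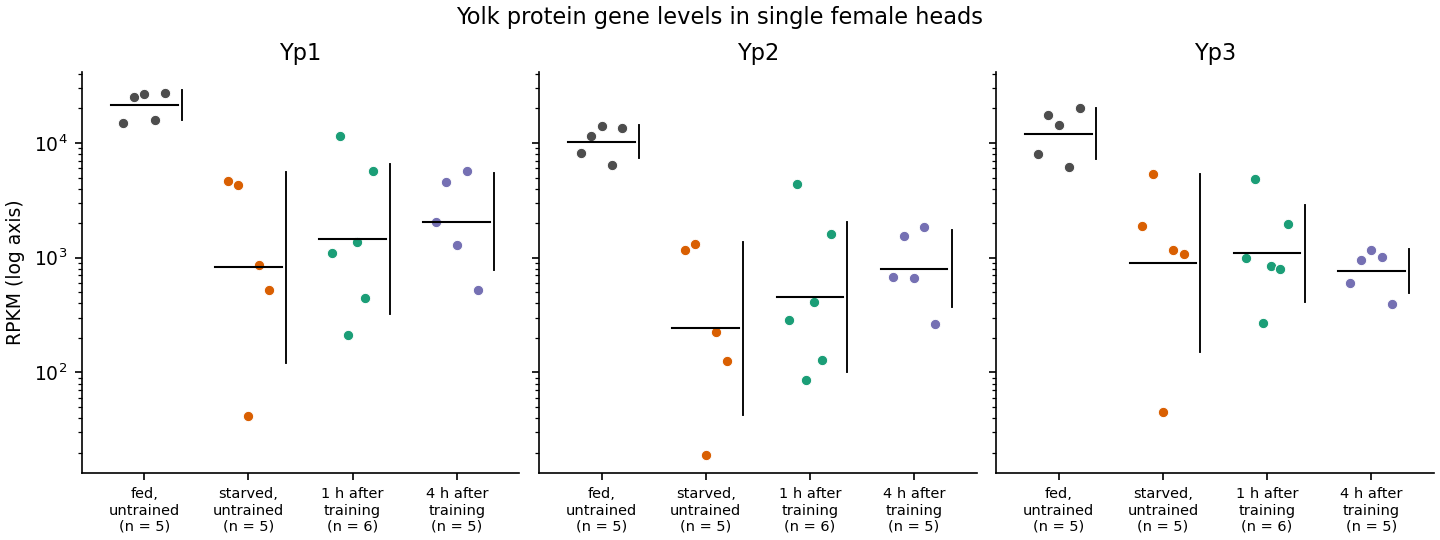
RPKM (log axis) of Yp1, Yp2 and Yp3 in each head, by group, with 1 point for each fly. The horizontal line is the mean and the vertical line the SD on the log2(RPKM + 1) scale. The 5 fed heads sit above all 16 food-deprived heads in each panel, and starved replicate 3 is the lowest point, at 41.6 RPKM of Yp1.

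Starved heads were compared with fed heads, both from untrained flies, and all 3 genes were lower in starved heads. On the log2(RPKM + 1) scale Yp2 dropped by 5.39 (SE 1.08, adjusted p = 0.0216), a level 42.1-fold lower. Yp1 dropped by 4.68 (SE 1.16, adjusted p = 0.0488), or 25.7-fold, and Yp3 by 3.75 (SE 0.92, adjusted p = 0.0487), or 13.4-fold. The p-values came from limma over all 10501 tested genes with Benjamini-Hochberg adjustment. Among those genes 0.952% were called lower, and 2.13% had every starved head below every fed head, as each yolk protein gene did. The lower genes were 100 of the 159 called in either direction, but 77 of 854 when every head had the same total RPKM. Ordered by log2 fold change, Yp2 was the 3rd lowest, Yp1 the 7th and Yp3 the 12th of the tested genes. This order counts asRNA:CR45601, at -4.69, ahead of Yp1. An exact two-sided permutation test over heads gave 0.00794 for each gene, the smallest p that 5 heads against 5 can give.

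The direction of the fall held without any single fly, while the call did not. Without starved replicate 3 the difference was -3.61 for Yp1 (adjusted p = 0.107), -4.50 for Yp2 (0.0442) and -2.67 for Yp3 (0.0733), and without fed replicate 2 it was -4.62, -5.35 and -3.61 with adjusted p-values of 0.120, 0.0653 and 0.126. With 1 head left out at a time, the call held for Yp1 without fed replicate 1 or starved replicate 1 and was lost without any of the other 8, with adjusted p-values up to 0.120. The call on Yp2 was lost without fed replicate 2, 3 or 6 or starved replicate 5, and that on Yp3 held only without fed replicate 1 or starved replicate 1 or 2.

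Trained heads were compared with fed heads next, and the 3 genes were again lower. At 1 hour Yp2 dropped by 4.49 (SE 1.03, adjusted p = 0.0162), a level 22.4-fold lower. Yp1 dropped by 3.87 (SE 1.11, adjusted p = 0.0372). Yp3 dropped by 3.46 (SE 0.89, adjusted p = 0.0245). The background in this comparison was 3.85% of the tested genes called lower and 1.75% with every 1-hour head below every fed head, and the lower genes were 404 of 943 called, or 105 of 2164 at the same total RPKM. The exact permutation test gave 0.00433 for each gene, the smallest p for 6 heads against 5. The call on Yp2 held without any single head, that on Yp1 held only without fed replicate 1 or 1-hour replicate 2 or 6, and that on Yp3 was lost without fed replicate 2, 3 or 6 or 1-hour replicate 3 or 5. Adjusted p-values with 1 head left out reached 0.0913 for Yp1 and 0.0670 for Yp3.

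At 4 hours Yp3 was the member that passed the threshold. It dropped by 3.97 (SE 0.92, adjusted p = 0.0286), a level 15.7-fold lower than in fed heads. The difference was -3.68 for Yp2 (SE 1.08, adjusted p = 0.0670) and -3.37 for Yp1 (SE 1.16, adjusted p = 0.118), neither of which passed. Every 4-hour head was below every fed head in each of the 3 genes, which was so for 4.76% of the tested genes. Of all tested genes 1.7% were called lower (178 of 357 called genes, or 129 of 3270 at the same total RPKM). The exact permutation test gave 0.00794 for each gene. The Yp3 call held only without fed replicate 1 or 5 or 4-hour replicate 5, with adjusted p-values of up to 0.0860 without another head. These 3 comparisons share the fed heads.

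Trained heads were also set against starved heads, and no difference passed the test. Trained flies had met odor and sucrose and were collected 1 or 4 hours later. In the paper's memory tests flies also got standard food after training, and whether the sequenced flies did is not stated. Training, the sugar, any such food and the elapsed time thus cannot be told apart in this comparison either. Against starved heads the log2 difference at 1 hour was 0.81 for Yp1 (95% interval -1.51 to 3.13, adjusted p = 0.781). It was 0.91 for Yp2 (-1.25 to 3.06, adjusted p = 0.728) and 0.29 for Yp3 (-1.57 to 2.14, adjusted p = 0.923). At 4 hours it was 1.31 for Yp1 (-1.12 to 3.74, adjusted p = 0.556), 1.72 for Yp2 (-0.53 to 3.97, adjusted p = 0.372) and -0.23 for Yp3 (-2.16 to 1.71, adjusted p = 0.923). The heads of the groups overlapped in each gene. The intervals reach from a level 0.350 times that of starved heads to one 8.77 times as high for Yp1 at 1 hour. At 4 hours they reach from 0.692 to 15.7 times for Yp2 and from 0.223 to 3.27 times for Yp3. Changes of several-fold thus lay within the intervals, but their reach in each direction differed by gene and time. Of the tested genes 0.552% were called at 1 hour and 6.37% at 4 hours in either direction. Without starved replicate 3 the 1-hour difference was -0.26 for Yp1, 0.0086 for Yp2 and -0.79 for Yp3, and the 4-hour difference was 0.24, 0.82 and -1.30.

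Between the 2 times after training, the difference of 4-hour less 1-hour heads was 0.50 for Yp1 (SE 1.11, adjusted p = 0.890), 0.81 for Yp2 (SE 1.03, adjusted p = 0.773) and -0.51 for Yp3 (SE 0.89, adjusted p = 0.847). Here 0.0857% of the tested genes were called. Ordered by the mean, fed heads were highest for each gene, and the 3 food-deprived groups did not differ beyond their spread in any gene. Their mean log2 levels of Yp1 were 9.69 (SD 2.77, n = 5) in starved, 10.50 (SD 2.18, n = 6) in 1-hour and 11.00 (SD 1.4, n = 5) in 4-hour heads, against 14.38 (SD 0.43, n = 5) in fed heads.

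The ratios between the 3 genes within a head do not depend on how that head was scaled. Yp1 was the most abundant of the 3 in all 5 fed heads. In starved heads the order was another, with Yp3 highest in 4 of 5 and Yp2 lowest in all 5. In 1-hour heads Yp3 was highest in 2 of 6, and in 4-hour heads Yp1 was highest in all 5 and Yp3 was lowest in 3.

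Yp3 was measured against Yp2 as the log2 ratio of their RPKM + 1. It was -0.03, 0.61, 0.04, -0.06 and 0.59 in fed replicates 1, 2, 3, 5 and 6. In starved replicates 1 to 5 it was 0.70, 2.02, 1.18, 2.37 and 3.11, so every starved head was above every fed head. The means differed by 1.65 (exact two-sided permutation test, p = 0.00794), which is a ratio of 1.17 in fed and 3.67 in starved heads as geometric means. In 1-hour heads the lowest, median and highest ratios were 0.14, 1.34 and 2.62. In 4-hour replicates 1, 3, 4, 5 and 6 the ratio was -0.18, -0.70, 0.80, -0.85 and 0.58. These 4-hour heads were on average 1.95 below the starved heads (exact p = 0.0159) and 1.32 below the 1-hour heads (exact p = 0.0390), with overlap in both, and their mean was 0.30 below the fed heads (exact p = 0.413).

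Yp2 against Yp1, the divergent pair, was read in the same way. The log2 ratio was -1.05 in fed heads (SD 0.17, n = 5) and -1.66 in 1-hour heads (SD 0.25, n = 6), with every 1-hour head below every fed head (exact permutation test, p = 0.00433). In starved heads it was -1.76 (SD 0.41, n = 5), and 4 of these 5 heads were below all fed heads (exact p = 0.0238), the exception being replicate 3 at -1.07. In 4-hour heads it was -1.35 (SD 0.35, n = 5), a difference of -0.30 from fed heads (exact p = 0.119). Yp3 against Yp1 was 0.12 (SD 0.87, n = 5) in starved and -1.42 (SD 1.08, n = 5) in 4-hour heads, a difference of -1.54 (exact p = 0.0476). Its fed mean was -0.82 (SD 0.36, n = 5) and its 1-hour mean -0.40 (SD 0.93, n = 6). Over the 18 tests of 3 ratios in 6 comparisons, 6 had an exact p below 0.05, and the smallest value after Benjamini-Hochberg adjustment was 0.0714, so none held after correction. The test of Yp3 against Yp1 at 4 hours lost its call without 7 of 10 single heads (starved replicates 2, 3, 4 and 5 and 4-hour replicates 1, 3 and 5), with p up to 0.0952, and Yp3 against Yp2 between the times lost it without 7 of 11 (1-hour replicates 1, 3, 4 and 5 and 4-hour replicates 1, 3 and 5), with p up to 0.0857.

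**Figure D3:**
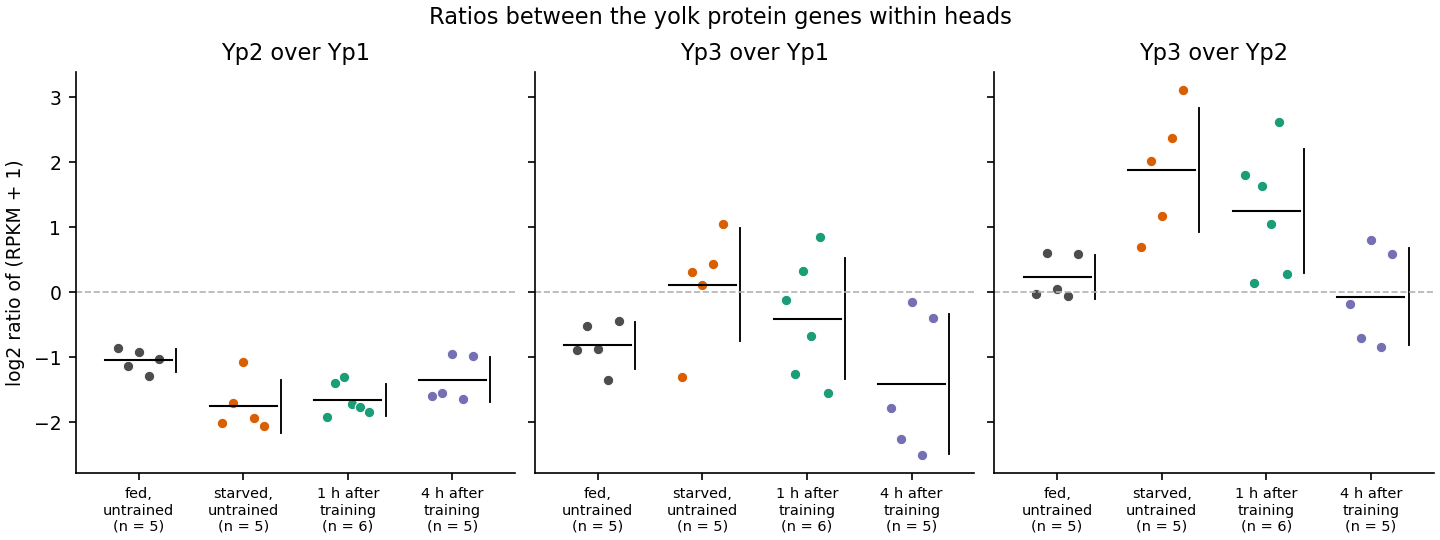
The log2 ratio of (RPKM + 1) between 2 yolk protein genes in each head, by group, with the mean (horizontal line) and SD (vertical line); the dashed line marks equal levels. Yp3 over Yp2 is above all fed heads in the 5 starved heads and lies between -0.85 and 0.80 in the 4-hour heads.

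From fly to fly the 3 genes rose and fell together. The fed heads form a cluster of their own, so relations were measured over the 16 food-deprived heads. Yp1 and Yp2 had a Pearson r of 0.986 on the log2 scale (permutation p = 1e-05, the smallest that 100000 resamples can give) and a Spearman rho of 0.974 (permutation p = 1e-05). For Yp1 and Yp3 r was 0.859 (permutation p = 2e-05) and rho 0.694 (p = 0.0041). For Yp2 and Yp3 r was 0.816 (permutation p = 0.00016) and rho 0.638 (p = 0.009). After adjustment over the 3 pairs the p-values of r were 3e-05, 3e-05 and 0.00016, and those of rho 3e-05, 0.0061 and 0.009. Without the 2 heads farthest from the median of the first gene, starved replicate 3 and 1-hour replicate 2, r was 0.975, 0.678 and 0.595 over 14 heads. The permutations shuffled heads across the 3 food-deprived groups, so their p-values also take in any differences between groups. When each group's mean was taken off first, r over the 16 heads was 0.990, 0.907 and 0.899, which was not tested. The divergent pair was thus closer in each of these measures than either gene was to Yp3; that difference between correlations was not tested.

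**Figure D4:**
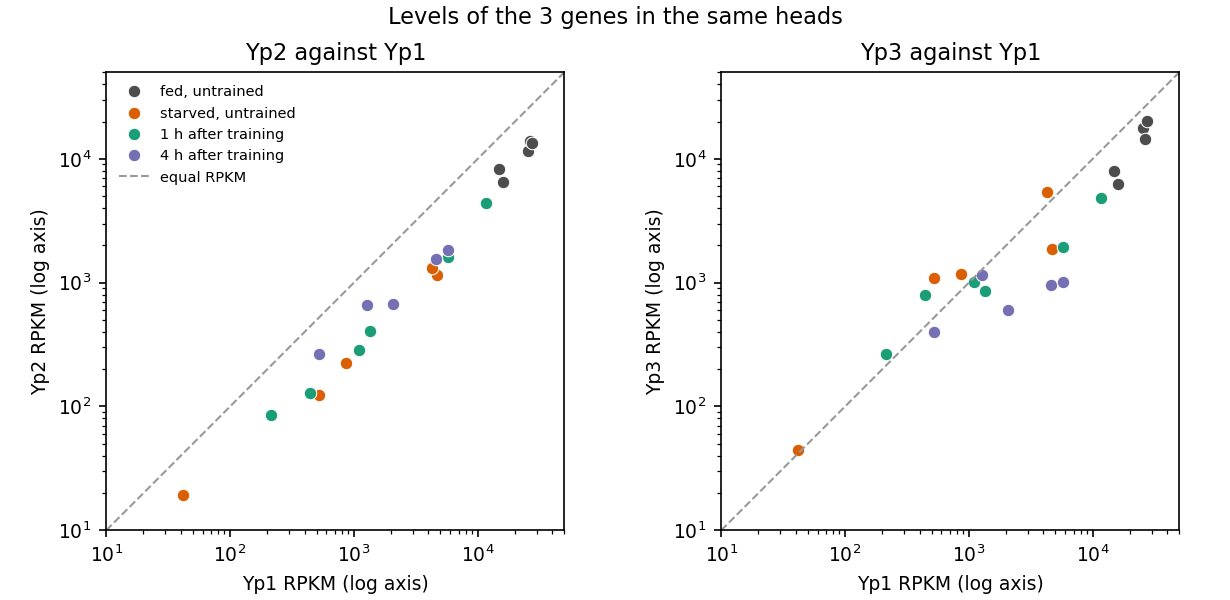
Yp2 (left) and Yp3 (right) against Yp1 in the same heads, in RPKM on log axes, coloured by group; the dashed line marks equal RPKM. Points for Yp2 keep close to a line below the diagonal (r = 0.986 over the 16 food-deprived heads), while those for Yp3 spread on both sides of it (r = 0.859).

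A few markers of the fat body were called lower in food-deprived than in fed heads. In whole heads, fewer fat body cells and less RNA per cell cannot be told apart. Of 12 fat body markers 11 are in the table and 8 passed the filter; the number called lower than in fed heads was 1 in starved, 3 in 1-hour and 2 in 4-hour heads, and 0 were called higher. Of all tested genes 0.952%, 3.85% and 1.7% were called lower. Their median log2 difference was -1.29, -1.13 and -1.03, against -0.0015, -0.014 and -0.0076 over all genes. Their summed level was 533 to 5094 RPKM in fed, 93.4 to 561 RPKM in starved, 241 to 548 RPKM in 1-hour and 191 to 1005 RPKM in 4-hour heads. Fed replicate 2 had the highest sum, and without it the highest was 2981 RPKM. In that head Lsp1beta, a larval serum protein, was at 1954 RPKM, against 0.794 to 73.7 RPKM in the other fed heads. The lipase gene bmm (brummer), which releases stored fat, was at 22.9 to 47.7 RPKM in fed and 45.7 to 249.5 RPKM in starved heads, a log2 difference of 1.29 that did not pass the test (adjusted p = 0.209).

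The members called were to (takeout), which codes for a circadian carrier protein linked to feeding, Lsp2, a larval serum storage protein, and apolpp, the precursor of the main lipid carrier of the hemolymph. The to level was 63.2 to 89.7 RPKM in fed and 18.7 to 39.1 RPKM in starved heads, a log2 difference of -1.56 (adjusted p = 0.0196), and the difference was -1.79 at 1 hour (adjusted p = 0.00262) and -1.47 at 4 hours (adjusted p = 0.0190). Lsp2 was at 3.35, 1520, 241, 2.47 and 1891 RPKM in fed replicates 1, 2, 3, 5 and 6, and between 0.794 and 5.03 RPKM in all food-deprived heads. Its differences were -5.26 in starved (adjusted p = 0.0516), -5.16 in 1-hour (0.0217) and -5.26 in 4-hour heads (0.0371), and fed replicates 1 and 5, the lowest in yolk protein transcripts, were also the lowest in Lsp2. The apolpp level had medians of 751, 143, 123 and 356 RPKM in fed, starved, 1-hour and 4-hour heads, with a difference of -3.04 at 1 hour (adjusted p = 0.0431).

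Starved replicate 3, the head with the least yolk protein RNA, was low in several of these genes too. It had 14.3 RPKM of apolpp, 2.77 RPKM of Apoltp, a lipid transfer particle protein, and 0.513 RPKM of AkhR, the receptor for the fly's fat-mobilizing hormone. In the other starved heads AkhR was 13.1 to 20.6 RPKM and Apoltp 38.6 to 59.7 RPKM. The mean log2 level of the 8 tested markers was 2.66 in this head and 4.25 to 4.93 in the other starved heads. The part of fat body content in its yolk protein levels was not tested.

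The mean of the 3 yolk protein genes was set against that of the 8 markers. On the log2 scale the yolk mean was above the marker mean by 8.58, 6.69, 8.08, 8.41 and 7.51 in fed replicates 1, 2, 3, 5 and 6. In starved replicates 1 to 5 this gap was 6.83, 6.68, 2.43, 4.94 and 4.31. It was 3.76 to 8.27 in 1-hour and 4.13 to 7.0 in 4-hour heads, so 4 of 5 starved, 4 of 6 1-hour and 3 of 5 4-hour heads were below all fed heads, with overlap in each case. The mean gap was 7.85 in fed (SD 0.77, n = 5), 5.04 in starved (SD 1.82, n = 5), 5.68 in 1-hour (SD 1.78, n = 6) and 5.86 in 4-hour heads (SD 1.26, n = 5). The marker mean averages genes whose log2 differences between starved and fed heads ran from -5.26 for Lsp2 to 1.29 for bmm.

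Genes of the head fat body whose level depends on sex were read beside them. Of 4 such genes, fit and Cyp4d21 (sxe1) were called lower in starved and in 1-hour heads and Cyp4d21 in 4-hour heads, beside the same 0.952%, 3.85% and 1.7% of all tested genes. The gene fit, which codes for a small secreted peptide made in female fat body and known to signal protein feeding, was at 264, 1102, 672, 223 and 717 RPKM in fed replicates 1, 2, 3, 5 and 6. It was at 9.28, 14.3, 0.965, 24.2 and 1.61 RPKM in starved heads, a log2 difference of -6.10 (SE 0.84, adjusted p = 0.00193), and also fell at 1 hour by 4.22 (adjusted p = 0.00646). It passed the test for a rise from starved to 4-hour heads, where it was at 26.8, 113, 148, 80.4 and 61.5 RPKM (log2 difference 3.37, adjusted p = 0.0223). Whether its change differed from theirs was not tested. Cyp4d21, a cytochrome P450, was at 17.3 to 26.8 RPKM in fed and 3.67 to 9.15 RPKM in starved heads (difference -1.61, adjusted p = 0.0398), with differences of -1.88 at 1 hour (0.00606) and -1.92 at 4 hours (0.0123).

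**Figure D5:**
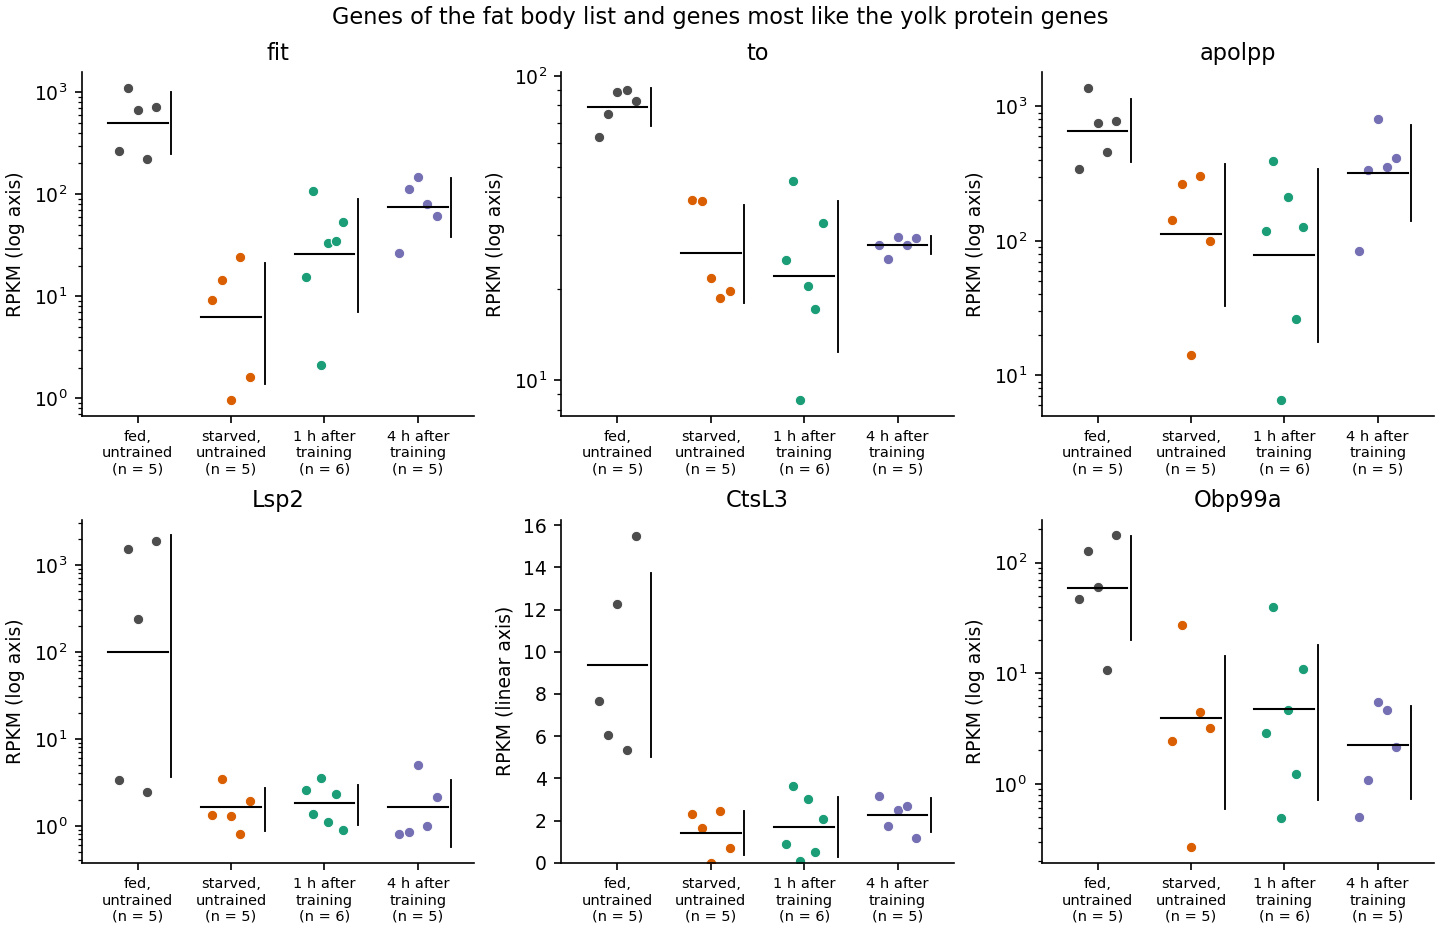
RPKM in each head of 4 genes of the fat body and sex-biased lists (fit, to, apolpp, Lsp2) and of CtsL3 and Obp99a, on log axes except CtsL3 (linear axis). The genes CtsL3, Obp99a and to are among the 10 whose pattern is most like the yolk protein genes. Lines are the mean and SD on the log2(RPKM + 1) scale, for CtsL3 on the linear scale. All fed heads are above all other heads for fit, to and CtsL3, while Lsp2 is as low as 2.47 RPKM in a fed head and apolpp reaches 811 RPKM in a 4-hour head.

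Regulators of the yolk protein genes were read next. Of all tested genes 1.51%, 8.98% and 3.4% were called in either direction in starved, 1-hour and 4-hour against fed heads, so 0 calls in lists this small is near the background. Of the 8 sex determination genes tested, limma called 0 in starved against fed heads (1 at an unadjusted p below 0.05, and 0 with voom weights), and tra, the splicing factor that gives the female form of Doublesex, was called higher at 1 hour (log2 difference 0.28, adjusted p = 0.0313) and 4 hours (0.33, adjusted p = 0.0324), where 5.13% and 1.7% of the tested genes were called higher. Its level was 9.41 to 12.4 RPKM in fed and 13.4 to 15.6 RPKM in 4-hour heads. Against fed heads, voom weights called 1 of these 8 genes at 1 hour and 4 at 4 hours, beside 1459 and 2290 of all genes. The dsx gene itself was at 4.23 to 5.41 RPKM in fed and 1.89 to 5.09 RPKM in starved heads (difference -0.34, adjusted p = 0.358). Of 4 factors that bind control DNA of the yolk protein genes, dsx, Aef1 and srp passed the filter and limma called 0 in any comparison (at most 1 at an unadjusted p below 0.05, and at most 1 with voom weights); srp, the GATA factor of the fat body, was at 11.8 to 21.5 RPKM in fed and 4.00 to 18.1 RPKM in starved heads (difference -0.49, adjusted p = 0.358). Of 18 genes for hormone and nutrient signals that control yolk formation, 16 are in the table, 15 passed the filter and limma called 0 in any of the 6 comparisons. At an unadjusted p below 0.05 there were 1 to 5 of these 15, with 5 at 4 hours against starved heads, and voom weights called at most 1. Over all 10501 tested genes, 1345 to 2959 had such a p in the 6 comparisons, with 2328 at 4 hours against starved heads. Voom weights called 7 to 2290 of all genes.

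For the uptake and processing of yolk, 10 of 11 genes passed the filter. Tpst, the enzyme that adds sulfate to tyrosines of secreted proteins, yolk proteins among them, was called lower than in fed heads in all 3 groups, by differences of -0.48 in starved (adjusted p = 0.0257), -0.42 in 1-hour (0.0134) and -0.46 in 4-hour heads (0.0207). Its level was 12.5 to 15.0 RPKM in fed and 9.23 to 11.8 RPKM in starved heads. When every head had the same total RPKM, the Tpst differences were -0.17, -0.14 and -0.13. Voom weights called 0 of the 10 tested genes in starved against fed heads, beside 287 of all genes. The Tpst call was thus lost there. LRP1, a lipoprotein receptor of the LDL receptor family, was called lower at 4 hours, by -0.54 against fed (adjusted p = 0.0300) and -0.47 against starved heads (0.0349). The oocyte receptor for yolk proteins, yl, was at 0 to 1.83 RPKM and did not pass the filter. It was highest in 4-hour replicate 6, one of the heads with ovary transcripts.

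In starved against fed heads, 0 of the 5 neuron, 5 glia, 8 photoreceptor and 5 hemocyte markers were called by limma, with voom weights or at an unadjusted p below 0.05. Of all 10501 tested genes, limma called 1.51% and 2041 had an unadjusted p below 0.05. Voom weights called 287 genes. At 4 hours against fed heads, the glial gene Gs2 (-0.68, adjusted p = 0.0328) and the hemocyte genes NimC1 (-0.49, 0.0463) and crq (-0.22, 0.0474; 0.13 when every head had the same total RPKM) were called lower, and the photoreceptor genes Arr1 (0.38, 0.0367) and Rh6 (0.44, 0.0257) higher, with 1.7% of all tested genes called in each direction. At 4 hours against fed heads, voom weights called 6 of the 8 photoreceptor markers and 1 each of the neuron, glia and hemocyte markers, beside 2290 of all genes. Against starved heads at 4 hours, Arr1 (0.43, 0.0107) and ninaE (0.45, 0.0464) were higher and crq (-0.24, 0.0206) lower, with 6.37% of all tested genes called. Voom weights called 2 photoreceptor and 0 hemocyte markers in that comparison, beside 653 of all genes. The summed photoreceptor level was 15310 to 20360 RPKM in fed and 22680 to 25120 RPKM in 4-hour heads, and its part in the yolk protein levels was not tested.

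The genes whose pattern was most like the mean of the 3 were found by Pearson r of log2(RPKM + 1) over the 21 heads, given as a description, since heads of a group share its condition. The median over the tested genes was 0.05, and 39 genes (0.372%) had r above 0.8. First came asRNA:CR45601 (r = 0.992), whose reads cannot be told from those of Yp1. CtsL3, a gene of the cathepsin L protease family, followed with r = 0.904. It was at 5.32 to 15.5 RPKM in fed and 0 to 2.44 RPKM in starved heads, lower in all 3 food-deprived groups (adjusted p = 0.0168, 0.00646 and 0.0366). Next were to (0.870), CG7900 (0.870), Acox57D-d, an acyl-CoA oxidase of peroxisomal fat breakdown (0.869), CG18336 (0.868), CG9287 (0.868), Obp99a, an odorant-binding protein (0.867), SamDC, an enzyme of polyamine synthesis (0.861), and CG30046 (0.858).

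Obp99a was at 10.7 to 177 RPKM in fed and 0.267 to 27.4 RPKM in starved heads. Its differences from fed heads were -3.61 in starved (adjusted p = 0.0503), -3.39 in 1-hour (0.0240) and -4.21 in 4-hour heads (0.0207). After the mean of each group was taken off, r was 0.774 for CtsL3, 0.724 for to, 0.756 for Obp99a and 0.844 for Acox57D-d. These genes were chosen by their r over the same heads, so these values are a description. The lowest r belonged to Cont, a cell adhesion protein (-0.857), Nlg2, a neuroligin of synapses (-0.827), CG10939 (-0.826), CG17746 (-0.815) and slim (-0.810). Cont was at 18.8 to 21.3 RPKM in fed and 21.3 to 27.1 RPKM in starved heads (difference 0.23, adjusted p = 0.105). At 1 hour against fed heads Cont (0.33, adjusted p = 0.0116), CG10939 (0.57, 0.0104), CG17746 (0.34, 0.0420) and slim (0.43, 0.0284) were called higher and Nlg2 (0.17, 0.0591) was not. These 5 were likewise chosen for their pattern.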

How the data were processed

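Non-stranded polyA libraries of single heads were sequenced by the authors, who kept uniquely mapping reads and deposited RPKM per gene and head. The submitters' processing notes name CASAVA 1.8.2, TopHat2 2.0.13, edgeR 3.18.1 and dm6; another paragraph of the methods names TopHat, Bowtie and dm3. From the deposited RPKM, whole reads were recovered for 99.22% of the 17212 genes above 0 (tolerance 0.02 reads); overlapping genes count shared reads more than once. Of 17559 genes, 17253 were named. A few listed genes are not analysed here.

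Groups were compared on log2(RPKM + 1), which understates changes of low genes, with limma 3.58.1 (R 4.3.3; all 21 heads in 1 fit, mean-variance trend) over 10501 genes with at least 1 RPKM in at least 5 heads, adjusted by Benjamini-Hochberg and called below 0.05. Single values were tested by exact permutation over heads (scipy 1.17.1). The fit was tested on simulated data. No count model was the main test because the deposited unit is RPKM; voom weights on the recovered reads were an alternative added after seeing the data. Correlations were planned over 21 heads and are given for the 16 outside the fed cluster. Named were the 3 genes, the 10 most and 5 least like them, and list members called. The members and the 12 lists, written from general knowledge, were chosen with earlier results of these data known. Replicate numbers did not pair heads. Related proteins were not compared here. P-values measure spread between single flies.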

Additional observations from a re-analysis of the deposited data

Results flagged for a closer look

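The log2 ratio of Yp3 to Yp2 differed between the 2 times after training: relative to the same starved heads, it was 1.32 lower at 4 hours than at 1 hour (difference -1.32, exact two-sided permutation test, p = 0.0390, unadjusted among 18 tests; 0.127 after Benjamini-Hochberg adjustment). Of the 5 heads at 4 hours, 3 were below all 6 heads at 1 hour. No head stood apart from its group by Dixon's criterion in the 32 sets of values examined, where chance gives about 1 in 20. This does not extend to every value given above. Fed replicate 2 stood apart in the small structural RNAs, roX2 and Lsp1beta, and starved replicate 3 in AkhR and Apoltp. The summed level of ovary markers stood apart in 1-hour replicate 2 and 4-hour replicate 6.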

How the results depend on the processing

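The fall of the yolk protein genes against fed heads kept its direction under every alternative, while calls near the threshold did not. Without a filter, 3 calls were lost: Yp1 and Yp3 in starved heads (-4.68 and -3.75, adjusted p = 0.0742 for both) and Yp1 at 1 hour (-3.87, 0.0616). With only the 2 groups in the fit, starved heads gave -4.68, -5.39 and -3.75 for Yp1, Yp2 and Yp3 (0.125, 0.0853 and 0.159) and 1-hour heads -3.87 for Yp1 (0.0626), all lost, while at 4 hours Yp1 (-3.37, 0.0202) and Yp2 (-3.68, 0.0104) were gained. Scaling to the same total RPKM moved the median of all genes to between 0.25 and 0.30 against fed heads (voom: 0.14 to 0.21) and gained Yp1 (-3.02, 0.0418) and Yp2 (-3.32, 0.0274) at 4 hours. With the yolk protein genes left out of that total the median lay between 0.17 and 0.21, and Yp1 (-4.46, 0.0600) and Yp3 (-3.52, 0.0557) were lost in starved heads. Voom weights on the recovered reads, chosen after seeing the data, gained Yp2 at 4 hours (-3.46, 0.0402). With replicate number as a block, calls were lost for Yp1 (-4.61, 0.0774) and Yp3 (-3.75, 0.0603) in starved and Yp3 (-3.64, 0.0575) in 4-hour heads, and Yp3 at 4 hours against starved heads turned to 0.11 (0.963); same-numbered heads correlated between -0.42 and 0.28 (median -0.03), so the numbers do not pair them. The cause of these shifts was not tested.

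With 1 head left out at a time, differences from fed heads ran from -5.31 to -3.61 for Yp1, -6.00 to -4.50 for Yp2 and -4.39 to -2.67 for Yp3 in starved heads, from -4.47 to -3.32 for Yp1 and -3.89 to -3.05 for Yp3 at 1 hour, and from -4.21 to -3.73 for Yp3 at 4 hours. Differences that were not called changed sign: 1-hour less starved heads ran from -0.26 to 1.43 for Yp1 and -0.79 to 0.93 for Yp3, 4-hour less starved from -1.30 to 0.42 for Yp3, and 4-hour less 1-hour from -0.0539 to 1.1 for Yp1. Ratio differences ran from 0.31 to 0.58 for Yp2 over Yp1 at 4 hours less starved, 0.70 to 1.29 for Yp3 over Yp1 in starved less fed and -1.89 to -1.26 at 4 hours less starved, 0.75 to 1.25 for Yp3 over Yp2 at 1 hour less fed, and -1.55 to -1.05 at 4 hours less 1 hour. Counts of called genes varied more than the yolk protein differences. Over all alternatives they ran from 14 to 854 (159 as reported) for starved against fed heads, 131 to 2164 (943) and 60 to 3270 (357) for 1-hour and 4-hour against fed heads, 3 to 139 (58) and 289 to 802 (669) against starved heads, and 4 to 30 (9) between the times. At the same 75th percentile 108 of 146 genes called in starved against fed heads were lower, and 206 of 737 (289 of 669 as reported) in 4-hour against starved heads.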
